A study of Mus musculus with 6 samples.

Results

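The genes described here encode the subunits of the mitochondrial respiratory chain and of ATP synthase, measured by RNA-seq in primary gingival fibroblasts of the mouse. A gene was a member if the deposited table typed it as protein-coding and its symbol belonged to the Nduf (complex I), Sdh (complex II), Uqcr and Cyc1 (complex III), Cox4 to Cox8 (complex IV), Atp5 (complex V) or mt-Nd, mt-Cytb, mt-Co and mt-Atp families, leaving out the Ndufaf assembly factors. This gave 96 members of 20665 genes, 83 of them nuclear-encoded (36 in complex I, 4 in complex II, 9 in complex III, 17 in complex IV and 17 in complex V) and 13 encoded by mitochondrial DNA (7 in complex I, 1 in complex III, 3 in complex IV and 2 in complex V). The members were chosen by name and genome, not by their measured values, though with earlier results of these data known. Ndufa4 and its relative Ndufa4l2 were counted with complex IV, of which Ndufa4 is known to be a subunit. Cox6a1 was not analysed here. Cox5b-ps met the rule because its row is typed as protein-coding, although its symbol names it a pseudogene.

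The respiratory chain passes electrons from NADH and succinate through complexes I to IV to oxygen and pumps protons across the inner mitochondrial membrane, and complex V uses that gradient to make ATP. Complexes I, III, IV and V are assembled from subunits of both genomes, so their synthesis draws on nuclear transcription and on the separate transcription and translation inside the organelle, while complex II is wholly nuclear. Fibroblasts use the chain for ATP, for redox balance and for supplying aspartate and proline for matrix synthesis.

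Both groups were wild-type C57BL/6 primary cells grown in DMEM with 10% fetal bovine serum and antibiotics in 5% CO2 at 37 °C, and all 6 libraries were made from total RNA and carry the time label 3 h. The 3 irradiated libraries came from cells exposed in a 35-mm dish to an Er:YAG laser, an infrared laser used in dentistry, at 3.9 J/cm2 from a distance of 25 cm, and the 3 non-irradiated libraries had no treatment. The labels do not state whether different animals or dishes lie behind the libraries of a group. Every p-value here therefore sets a difference against the library-to-library spread left by its fit, which may be technical. The series addresses the early effect of irradiation on gene expression in these cells. Values are listed below in the order of replicate numbers 1, 2 and 3.

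Recovered reads summed to between 45178137 and 59904715 per library. The 10 fibroblast markers (Col1a1, Pdgfra, Thy1 and others) were all present, with summed normalized counts of 1841043 to 3113267 without irradiation and 2024589 to 2925266 with it, while the 5 of 10 keratinocyte markers found summed to at most 112 in any library. Immune markers (8 of 10 found) summed to 547 to 1071, neural and Schwann markers (6 of 6) to 2325 to 3328, and testis germ cell markers (2 of 6) to at most 19.9 normalized counts. One library stood apart for the genes described here: in non-irradiated replicate 2, 76 of the 95 members tested had their highest value of the 6 libraries. Across all 16141 genes tested the share highest in that library was 23.1%. Sums, medians and sign counts per complex and per list are therefore given also without it.

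No respiratory chain gene passed the test for a difference between irradiated and non-irradiated cells. Of the 96 members, 95 had 10 or more normalized counts in 3 or more libraries and were tested with limma on log2(normalized count + 1), with Benjamini-Hochberg adjustment over all genes tested and a threshold of 0.05. None of the 95 was called, against 0 of 16141 genes (0%), and none reached an unadjusted p under 0.05, against 132 genes (0.818%). With replicate number as a block, 0 members and 3 genes (0.0186%) passed after adjustment, and 0 members and 526 genes (3.26%) before it. None of the members passed the same threshold in the authors' deposited table, that is 0 of 95 members and 24 of 15051 genes with an adjusted p (0.159%). The smallest limma adjusted p among members was 0.9998. No member had groups that did not overlap, against 336 genes (2.08%) with the irradiated group higher throughout and 428 (2.65%) with it lower throughout. For the 90 members that averaged 500 or more normalized counts in non-irradiated cells, the log2 fold change lay between -0.27 and 0.19 with standard errors of 0.09 to 0.24. Standard errors (SE) of single genes here and below are from the fit without the block. With the block that of mt-Nd5 was 0.08 instead of 0.16, and that of Ndufa12 0.20 instead of 0.22.

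The direction of the differences within the nuclear-encoded members varied with the pair of libraries. Their median log2 fold change was -0.09 over 82 tested members, beside 0.01 over all genes, and 71 of the 82 were negative. Over all members 76 of 95 were negative, against a background of 7830 of 16141 genes (48.5%). Other genes leaned the same way. In the shortest of 3 equal classes of all genes by exon length 60.0% were negative. Among ribosomal protein genes 88 of 101 cytosolic and 57 of 78 mitochondrial ones were negative. In the pair of replicate number 1 the median log2 ratio was 0.14 and 76 of 82 were higher in irradiated cells. In replicate number 2 the median was -0.34 and 1 of 82 was higher, and in replicate number 3 the median was -0.07 and 22 of 82 were higher. Without non-irradiated replicate 2 the median log2 fold change turned to 0.04, with 23 of 82 negative. The median of the 13 mitochondrially encoded members was 0.02, with 5 negative, and their medians in the 3 pairs were 0.03, 0.06 and -0.01.

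**Figure D1:**
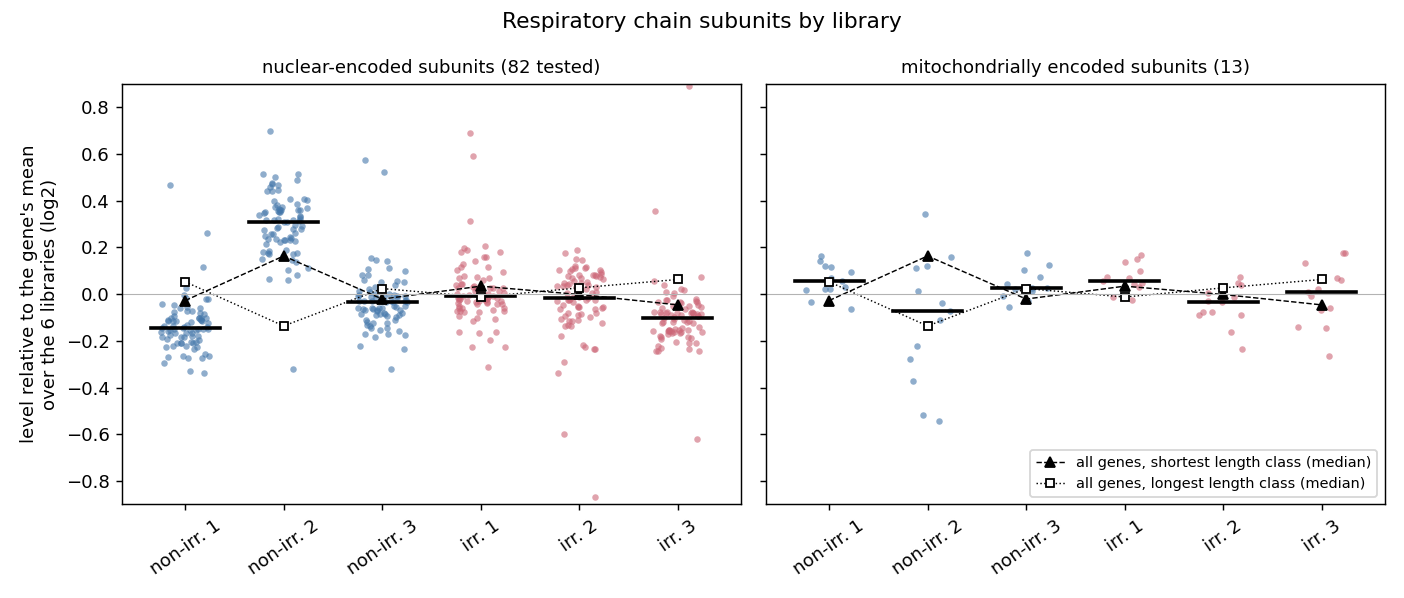
Level of each tested member relative to its own mean over the 6 libraries (log2, vertical axis) in each library, with nuclear-encoded subunits at left and mitochondrially encoded subunits at right; dots are genes, black bars their medians, and the joined symbols give the medians of the shortest and longest genes (length classes of equal size) among all tested. The nuclear median is 0.31 in non-irradiated replicate 2 and between -0.15 and -0.01 in the other 5 libraries, and 2 members, Cox4i2 and Ndufa4l2, run beyond the axis in some libraries.

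The plot of relative level shows how the libraries differ. Relative to each gene's mean over the 6 libraries, the nuclear-encoded members had median log2 levels of -0.15, 0.31 and -0.03 without irradiation and -0.01, -0.01 and -0.10 with it. Of the 82, 73 were highest in non-irradiated replicate 2 and 41 were lowest in non-irradiated replicate 1. The lowest and the highest nuclear level thus both fell within the non-irradiated group, and the irradiated libraries lay between them. The mitochondrially encoded members had median relative levels of 0.06, -0.07 and 0.03, then 0.05, -0.03 and 0.01, so non-irradiated replicate 2 was the lowest for them.

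Gene length moved with that library. Exon length was taken as the union of annotated exons, and nuclear-encoded members had a median of 1578 bases, against 3918 over all genes tested. All genes were divided into 3 equal classes by length. In non-irradiated replicate 2 the shortest class (up to 2757 bases) had a median relative log2 level of 0.16 and 36.1% of them were highest there. For the middle class these values were 0.01 and 22.5%, and for the longest class (over 5365 bases) -0.14 and 10.5%. Ribosomal protein genes, which also encode parts of large complexes, had median relative log2 levels there of 0.29 for 101 cytosolic and 0.30 for 78 mitochondrial members. The part that length plays in the nuclear members' level was not tested. Summed fibroblast markers were also lowest in this library, at 1841043 normalized counts against 2024589 in its irradiated partner. The single markers differed in this. Col1a1, Col1a2, Pdgfra, Postn and Fn1 were each lowest there, Col3a1, Thy1, Dcn and Vim were not, and Lum was highest there, at 1119.

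Summed over all nuclear-encoded members, 310966, 413138 and 326485 normalized counts were found without irradiation and 339042, 344873 and 318280.0 with it. Non-irradiated replicate 2 was the highest and non-irradiated replicate 1 the lowest of the 6, so the irradiated values fell within the range of the non-irradiated ones. The log2 ratios of the 3 pairs were 0.12, -0.26 and -0.04, with a mean of -0.06 ± 0.11 (SEM, n = 3). These sums came to 0.614%, 0.858% and 0.654% of all counts without irradiation and 0.669%, 0.699% and 0.620% with it.

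The mitochondrially encoded members, though only 13 genes, held most of the subunit counts. Their sums were 980071, 854362 and 952044 and then 993150.5, 895149 and 938529 normalized counts, and the 3 pairs had log2 ratios of 0.02, 0.07 and -0.02, with a mean of 0.02 ± 0.03 (SEM, n = 3). They made up 1.93%, 1.78% and 1.91% of all counts without irradiation and 1.96%, 1.81% and 1.83% with it. Of all subunit counts the mitochondrial part was 75.9%, 67.4% and 74.5%, then 74.6%, 72.2% and 74.7%. The low value belonged to non-irradiated replicate 2, and the other 5 libraries lay between 72.2% and 75.9%. Without that library the difference in the mitochondrial sum turned negative, with a difference in mean log2 sum of -0.04.

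**Figure D2:**
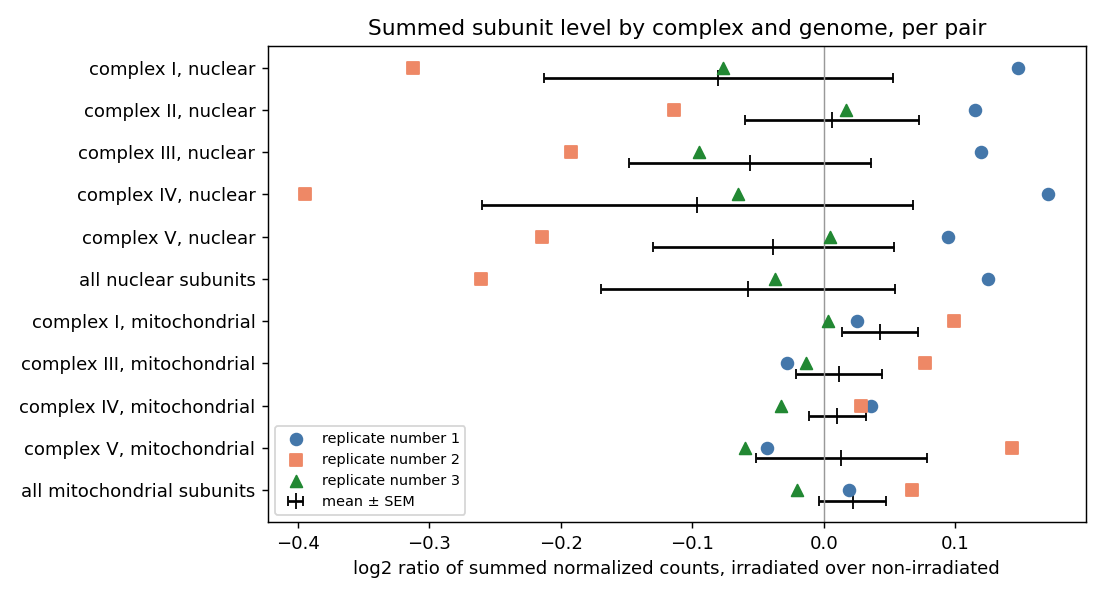
Log2 ratio of summed normalized counts in irradiated over non-irradiated libraries (horizontal axis) for each complex and genome, with 1 symbol per replicate number and the mean with its SEM below. For all 5 nuclear sums replicate number 1 lies above 0 and replicate number 2 below 0, while the mitochondrial ratios lie between -0.06 and 0.14.

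By complex, the nuclear sums followed one order of pairs, as the plot of complex ratios shows. Complex I summed to 76654, 102096 and 82608 and then 84922, 82243 and 78354 normalized counts, with pair ratios of 0.15, -0.31 and -0.08. Complex IV had the widest pair ratios, 0.17, -0.39 and -0.07, and complex II the narrowest, 0.12, -0.11 and 0.02. In each of the 5 complexes replicate number 1 was positive and replicate number 2 negative. The mean log2 ratios were -0.08 ± 0.13 (SEM, n = 3) for complex I, 0.01 ± 0.07 (SEM, n = 3) for complex II, -0.06 ± 0.09 (SEM, n = 3) for complex III, -0.10 ± 0.16 (SEM, n = 3) for complex IV and -0.04 ± 0.09 (SEM, n = 3) for complex V, each within 1 SEM of 0. Without non-irradiated replicate 2 the differences in mean log2 sum were 0.04, 0.11, 0.07, 0.04 and 0.09 in the same order, and 0.07 for all nuclear members. The median log2 fold changes of complexes I, III, IV and V also turned from negative to positive without it. For complex IV the median went from -0.09 with 15 of 16 negative to 0.04 with 6 of 16, and for complex V from -0.06 with 14 of 17 to 0.07 with 4 of 17. Complex V carried the largest nuclear sum, 132309, 173346 and 135165 and then 141257, 149409 and 135610.3 normalized counts, and complex II the smallest, 17599, 22669 and 18928 and then 19064, 20949.6 and 19154.

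Complex I, the NADH dehydrogenase, takes electrons from NADH and has the most subunits. Its 36 nuclear members had a median log2 fold change of -0.10, with 31 negative, beside 48.5% of all genes and 60.0% of the shortest length class. Without non-irradiated replicate 2 the median was 0.04 and 11 of the 36 were negative. The pairs that do not hold that library differed in direction. In number 1 the median log2 ratio was 0.16 and 33 of 36 were higher in irradiated cells. In number 3 it was -0.07 and 5 of 36 were higher. The smallest p among them belonged to the accessory subunit Ndufa3, with 1616, 2376 and 1794 normalized counts in non-irradiated and 1625, 1611 and 1559 in irradiated cells. Only non-irradiated replicates 2 and 3 stood above all irradiated values, and the groups overlapped, with a log2 fold change of -0.25 (SE 0.16). Ndufa7 had 2919.5, 3399.7 and 3323 and then 3320.4, 2657 and 2541 normalized counts and a log2 fold change of -0.19 (SE 0.14). Its irradiated replicate 1 lay among the non-irradiated values. Ndufs1, the large iron-sulfur subunit, had 3939, 4938 and 3958 and then 4417, 4695 and 4446 normalized counts.

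Per length, Ndufa2 was the highest nuclear complex I gene, with a mean of 4628 normalized counts per kilobase of exon, and Ndufb2 the lowest, with 212. The annotated exon union of Ndufb2 is 5628 bases, against 572 for Ndufa2, so this order rests on the annotated lengths. The members Ndufa5 and Ndufb3, both accessory subunits, were lower in irradiated cells in all 3 pairs. Ndufa5 had 1113, 1789.6 and 1265 and then 1102, 1338 and 1094 normalized counts, and Ndufb3 1018, 1605 and 1122 and then 993, 1231 and 1099.6. With Atp5mpl of complex V they were the 3 members lower in all pairs, against a background of 1768 genes (11.0%). The pair of replicate number 1 differed by 0.01 on the log2 scale for Ndufa5 and Atp5mpl and by 0.04 for Ndufb3, all on the lower side.

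Reads of Ndufa12 could be split with a near-identical copy. The processed pseudogene Ndufa12-ps took 17.6%, 43.7% and 42.9% of the summed counts of parent and copy without irradiation and 48.0%, 48.1% and 12.4% with it. Ndufa12 itself had 1502, 1394 and 1065 and then 1012, 1080.1 and 1605 normalized counts, with no order by group. The coefficient of variation over the 6 libraries was 20.0% for the parent and 12.5% for the sum, so its single-gene values are uncertain. The copies Ndufb4c, Atp5pb-ps and Cox5b-ps took steadier shares of 9.06% to 12.0%, 0.731% to 1.38% and 8.51% to 12.2%.

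Complex II, succinate dehydrogenase, links the tricarboxylic acid cycle to the chain. Its flavoprotein Sdha had 8021, 9808 and 8377 normalized counts in non-irradiated and 8752, 9540.0 and 8908 in irradiated cells, a log2 fold change of 0.06 (SE 0.11). The iron-sulfur subunit Sdhb had 3143, 4270.1 and 3139 and then 3261, 3391 and 2789.8, with -0.15 (SE 0.15). The groups overlapped for both, and in each gene non-irradiated replicate 2 was the highest library. The membrane anchor Sdhc had 3729, 4434 and 4294 and then 4078, 4228 and 4038 normalized counts, with -0.01 (SE 0.11). The other anchor, Sdhd, had 2706, 4156 and 3118 and then 2973, 3790.2 and 3418, with 0.04 (SE 0.18). For both anchors non-irradiated replicate 1 was the lowest and non-irradiated replicate 2 the highest library. Per length Sdhd was the highest of the 4, with 2729.7 normalized counts per kilobase, and Sdhc the lowest, with 1272.

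Promoter windows of the nuclear members were searched for 5 motifs, which the choice by name did not use. RefSeq promoter windows of GRCm38.p6, each 300 bases from 250 before to 50 after a start, were matched to 66 of the 83 nuclear members, in 71 windows. The sites of NRF1, GABPA (an ETS factor) and YY1 are known from earlier work as common in promoters of respiratory genes. The letters CGCANGCGC, taken for NRF1, occurred on either strand in 24 of 71 windows (33.8%), against 6.31% of all 32851 windows and 8.61% of the 21262 windows of protein-coding genes. The ETS letters CCGGAAG were in 22.5% of member windows, against 8.86% of all and 11.6% of protein-coding windows, and the YY1 letters AANATGGCG in 14.1%, against 2.38% and 3.12%. The GC box GGGCGG was in 38.0% of member windows, against 35.7% and 46.2%, and the ERR letters TNAAGGTCA in 4.23%, against 1.28% and 1.03%. Both strands were searched for each motif and overlapping matches were allowed. A match describes the letters only.

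Sdhd is shown because its window held 4 of the 5 motifs, the most of any member. Cox7a1 and Cox7a2 are shown as a pair, a tissue-restricted and a widely used isoform of the same complex IV subunit whose levels are described below. Sequences are 5′ to 3′ on the gene's strand, GRCm38.p6, with motif matches in capitals.
Sdhd (chr9:50603800-50604099, minus strand): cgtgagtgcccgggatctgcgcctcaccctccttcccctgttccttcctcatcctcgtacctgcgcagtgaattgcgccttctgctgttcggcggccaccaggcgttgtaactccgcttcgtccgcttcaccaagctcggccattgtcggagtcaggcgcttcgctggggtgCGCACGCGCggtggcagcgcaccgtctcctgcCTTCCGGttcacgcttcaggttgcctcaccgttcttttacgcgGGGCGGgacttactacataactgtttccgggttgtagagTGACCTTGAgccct
Cox7a1 (chr7:30183921-30184220, plus strand): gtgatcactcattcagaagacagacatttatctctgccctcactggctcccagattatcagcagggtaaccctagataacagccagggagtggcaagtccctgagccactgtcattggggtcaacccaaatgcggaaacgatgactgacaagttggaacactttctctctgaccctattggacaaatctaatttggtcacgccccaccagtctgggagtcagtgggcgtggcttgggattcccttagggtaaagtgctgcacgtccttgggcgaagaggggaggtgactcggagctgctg
Cox7a2 (chr9:79759804-79760103, minus strand): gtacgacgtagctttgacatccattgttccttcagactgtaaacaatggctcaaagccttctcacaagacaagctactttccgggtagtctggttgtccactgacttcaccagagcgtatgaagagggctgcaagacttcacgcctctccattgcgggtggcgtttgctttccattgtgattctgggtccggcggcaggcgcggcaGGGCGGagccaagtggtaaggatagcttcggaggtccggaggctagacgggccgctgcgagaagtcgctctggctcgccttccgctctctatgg
The capitals of Sdhd are an NRF1, an ETS, a GC box and an ERR match, and those of Cox7a2 a GC box, while the Cox7a1 window held none of the 5. Of the 23 members with the NRF1 letters in a window 21 were highest in non-irradiated replicate 2, and of the 42 without them 39.

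Complex III, the cytochrome bc1 complex, passes electrons from ubiquinol to cytochrome c. All 9 nuclear members had a negative log2 fold change, with a median of -0.04, and none passed the test. Of all genes 48.5% were negative, and of the shortest length class 60.0%. Without non-irradiated replicate 2 the median was 0.04 and 1 of the 9 was negative. Here too the pairs that do not hold that library differed. In number 1 the median log2 ratio was 0.11 and 8 of 9 were higher in irradiated cells. In number 3 it was -0.10 and 1 of 9 was higher. Uqcrh, the acidic hinge subunit, had 3178, 4656 and 3573 normalized counts in non-irradiated and 3423, 3675 and 3266 in irradiated cells, with a log2 fold change of -0.12 (SE 0.15). Uqcrb, a small subunit near the quinone site, had 2134, 3054 and 2246 and then 2384, 2314 and 2056, with -0.12 (SE 0.16). Both were highest in non-irradiated replicate 2 and overlapped between groups in the other libraries. Per length Uqcr10 was the highest with 4222 normalized counts per kilobase and the core subunit Uqcrc1 the lowest with 1729. The core subunit Uqcrc2 was the only one of the 82 nuclear members higher in irradiated cells in the pair of replicate number 2, at 4470.2, 4725 and 4540.4 and then 4301, 4859.5 and 4243 normalized counts.

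Complex IV, cytochrome c oxidase, reduces oxygen to water, and its nuclear subunits come in widely used and tissue-restricted isoforms. Cox5b, which binds zinc, had 3348, 5389 and 3772 normalized counts in non-irradiated and 3647, 3488 and 3357 in irradiated cells, with a log2 fold change of -0.22 (SE 0.18). Cox6b1, on the intermembrane side, had 4001, 5836 and 4299.6 and then 4589, 4236 and 3742, with -0.15 (SE 0.16). In both genes non-irradiated replicate 2 stood above the other 5 libraries, which overlapped between groups. Cox4i1, the widely used isoform of the regulatory subunit 4, had 13075, 17404 and 13534 and then 14989, 13498 and 12372 normalized counts and was the highest nuclear complex IV gene per length, with 9126 normalized counts per kilobase. Cox8a followed with 9014 per kilobase, at 4961, 6522 and 5510.1 and then 5494, 5363 and 5628 normalized counts, and Cox7b had 3054, 4646 and 3006 and then 3247, 3401 and 3203.

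The minor isoforms were low. Ndufa4l2, a relative of Ndufa4 known as a target of the hypoxia-inducible factor, had 332, 44.6 and 82.8 normalized counts in non-irradiated and 390.4, 26.4 and 62.5 in irradiated cells. Replicate number 1 was high in both groups and replicate number 2 lowest in both. It was the 1 member of 95 that differed between replicate numbers (limma F test, adjusted p = 0.000978), against 2165 of 16141 genes (13.4%). In limma without a trend its adjusted p was 0.0795 and no member passed. As a share of Ndufa4 and Ndufa4l2 per kilobase it was 9.97%, 0.995% and 2.38% without irradiation and 10.3%, 0.747% and 1.93% with it. Ndufa4 itself had 3787, 5600.1 and 4279.7 and then 4287, 4428 and 4009.6 normalized counts, lowest in non-irradiated replicate 1 and highest in non-irradiated replicate 2.

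Markers of other cells also varied by number. The 6 of 8 endothelial markers found summed to 625, 249 and 173 normalized counts without irradiation and 604, 258 and 256 with it. These markers did not vary alike. Tek, at 382, 49.7 and 48.6 and then 378, 72.4 and 70.2, and Kdr were highest in number 1 of both groups. Cdh5, Erg and Emcn were lowest in number 1 of both groups, with Emcn at 0 in both libraries. Pecam1 was highest in number 1 without irradiation and lowest in number 1 with it. The fibroblast sum, like the endothelial sum, was highest in number 1, at 3113267 and 2925266. Of the fibroblast markers Pdgfra, Lum and Vim were not highest there, and Lum was lowest there, at 59.2 and 50.3. The part of such cells in the level of Ndufa4l2 was not tested, and in bulk RNA more cells of a type and more RNA per cell cannot be told apart.

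**Figure D3:**
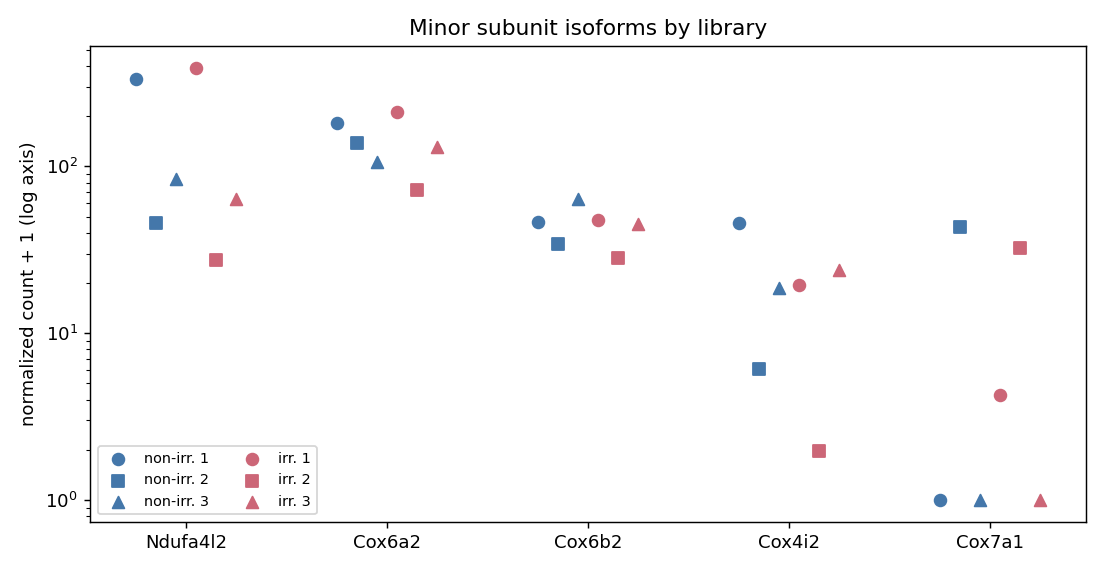
Normalized count + 1 (log vertical axis) of 5 minor subunit isoforms in each of the 6 libraries, with blue for non-irradiated, red for irradiated and 1 symbol shape per replicate number. Same-numbered libraries lie together for Ndufa4l2, at 332 and 390 in number 1, and for Cox7a1, at 42.6 and 31.3 in number 2.

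Cox7a1, the muscle and brown fat isoform of subunit 7a, was below the filter and was not tested. It was listed at 0, 42.6 and 0 normalized counts without irradiation and 3.28, 31.3 and 0 with it, so that both libraries of number 2 held nearly all of its reads. Its widely used partner Cox7a2 had 2242, 4049 and 2704 and then 2884, 2949.8 and 2498. Of the striated muscle markers 2 of 10 were found, almost wholly Acta1, and they summed to 1989, 3137 and 6771, then 1921, 3414 and 7091 normalized counts, highest in number 3. The brown fat markers found, Pparg and Fabp4, summed to 904, 1025 and 1970, then 977, 987 and 1676, also highest in number 3. This sum was mostly Pparg. Fabp4 had 108, 73.0 and 112, then 166, 94.9 and 108, and was highest in irradiated replicate 1. More specific markers on both lists, such as Myh1, Ckm, Ucp1 and Cidea, were not analysed here. The part of muscle or brown fat cells in the level of Cox7a1 was not tested.

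Cox4i2, an isoform known from lung, had 44.8, 5.07 and 17.7 normalized counts in non-irradiated and 18.6, 0.978 and 23.1 in irradiated cells. It was lowest in number 2 of both groups and made up 0.0143% to 0.670% of Cox4i1 and Cox4i2 per kilobase. Cox6a2, the heart and muscle isoform of subunit 6a, had 182, 137 and 105 and then 212, 71.4 and 129. Cox6b2, known from testis, had 45.7, 33.5 and 63.0 and then 47.0, 27.4 and 44.3, at 0.365% to 0.927% of Cox6b1 and Cox6b2 per kilobase. For all 3 the irradiated replicate 2 was the lowest library, and the replicate numbers did not pass the F test, with adjusted p of 0.0838 for Cox4i2, 0.176 for Cox6a2 and 0.437 for Cox6b2 in limma. Cox7a2l, a relative of Cox7a2, was abundant at 6376, 7158 and 6277 and then 7377, 5456 and 5901 normalized counts.

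Complex V makes ATP, with a catalytic head of alpha and beta subunits and a ring of c subunits in the membrane. The beta subunit gene Atp5b was the highest nuclear member per length, with 11054 normalized counts per kilobase. It had 43398, 54715 and 42973 normalized counts in non-irradiated and 45576, 50708 and 43640.5 in irradiated cells. The log2 fold change came to -0.01 (SE 0.13). Atp5a1, the alpha subunit, had 25583, 30548 and 25012 and then 26896, 28231 and 26170.4, with 0.01 (SE 0.11). In both genes each number 2 library was the highest of its group. Atp5e, the small epsilon subunit of the stalk, had 2782, 3637 and 2725 and then 2879.7, 2616 and 2449, with -0.19 (SE 0.14). Atp5l, the membrane subunit g, had 3254, 4471 and 3567 and then 3581, 3177 and 3055, with -0.19 (SE 0.14). These were the complex V genes of smallest p, and both groups overlapped in each.

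The c subunit is encoded by 3 genes whose mature proteins are known to be identical. Per length their means were 533 for Atp5g1, 2389 for Atp5g2 and 3647 for Atp5g3 in normalized counts per kilobase. Atp5g1 had 2151, 3417 and 2291 normalized counts in non-irradiated and 2592, 2732 and 2533 in irradiated cells. Atp5g2 had 3508, 4828 and 3958 and then 3908, 4107 and 3699, and Atp5g3 6593, 10042 and 7715 and then 7049.9, 8409 and 7919. The order of the 3 genes per length was the same in every library, and the share of Atp5g2 in Atp5g1 and Atp5g2 stayed between 80.6% and 83.5%. The coupling factor subunit Atp5j had 4172, 5453 and 4812 and then 4538, 4809 and 4162 normalized counts.

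Among the mitochondrially encoded genes mt-Co1, the catalytic subunit of complex IV, was the highest, at 34.3% of the counts of the 13 and rank 7 among all genes. It had 346370.3, 274221 and 322168 normalized counts in non-irradiated and 354110.2, 303441 and 324058 in irradiated cells, higher in irradiated cells in all 3 pairs by 0.03, 0.15 and 0.01 on the log2 scale. Together with mt-Nd1 and mt-Nd5 it was 1 of the 3 members higher in all pairs, against a background of 1911 genes (11.8%). The groups overlapped for each of the 3. The other catalytic core genes were mt-Co2, with 64117, 68914 and 64465 and then 66528, 59462 and 57270.2 and a log2 fold change of -0.11 (SE 0.11), and mt-Co3, with 55908, 59949 and 53404 and then 57595, 48129 and 48815 and -0.13 (SE 0.12). In both, irradiated replicates 2 and 3 were the lowest libraries, and irradiated replicate 1 lay among the non-irradiated values.

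**Figure D4:**
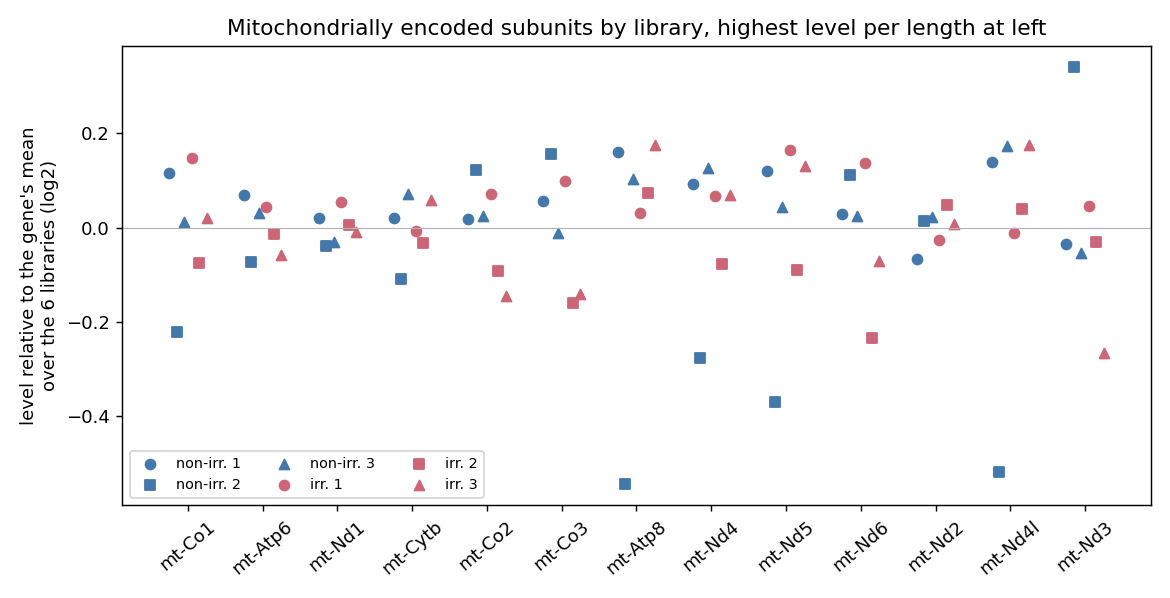
Level of each mitochondrially encoded subunit gene relative to its mean over the 6 libraries (log2, vertical axis), ordered by level per length, with blue for non-irradiated, red for irradiated and 1 symbol shape per replicate number. Non-irradiated replicate 2 is the lowest library for 8 of the 13 genes, with mt-Atp8 and mt-Nd4l at -0.54 and -0.52, and the highest for 3 (mt-Co2, mt-Co3 and mt-Nd3).

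The 7 mitochondrial genes of complex I encode its membrane arm, where protons are pumped. mt-Nd1 had 92211, 88519 and 88934 normalized counts in non-irradiated and 94366, 91209.6 and 90285 in irradiated cells, with a log2 fold change of 0.03 (SE 0.10), and mt-Nd2 39142, 41342 and 41622 and then 40222, 42339 and 41195, with 0.02 (SE 0.09). Both were steady over the 6 libraries. mt-Nd5 had 81849.5, 58237 and 77634 and then 84407, 70697 and 82446, with 0.14 (SE 0.16), and mt-Nd4 69715, 53968 and 71370.3 and then 68516, 61967 and 68631, with 0.04 (SE 0.14). For both, non-irradiated replicate 2 was the lowest library and irradiated replicate 2 the next. The smallest p of the group belonged to mt-Nd3, with 7025, 9117 and 6929 and then 7434, 7044 and 5982 and -0.17 (SE 0.14), where non-irradiated replicate 2 was the highest. mt-Nd6, on the opposite strand to the others, had 21936, 23209 and 21862 and then 23639, 18279 and 20469.6, with -0.11 (SE 0.12).

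Both short genes that overlap a longer one were low in non-irradiated replicate 2. mt-Atp8 had 14732, 9040.4 and 14163 normalized counts in non-irradiated and 13475, 13862 and 14876 in irradiated cells, and mt-Nd4l 9489, 6017 and 9716 and then 8546, 8860.0 and 9735. In each the other 5 libraries lay well above and overlapped between groups. Their log2 fold changes were 0.19 (SE 0.19) and 0.14 (SE 0.19). Each shares a transcript with its longer partner, mt-Atp6 for mt-Atp8 and mt-Nd4 for mt-Nd4l, and mt-Atp6 had 68057, 61688 and 66264 and then 66879, 64246 and 62294, with -0.02 (SE 0.10). The way the authors' counting treated reads on overlapping genes, and the strand setting, are not given in the sources, so these values and the split between mt-Nd5 and mt-Nd6 are uncertain. The single complex III gene, mt-Cytb, had 109518, 100140.2 and 113511 and then 107433, 105613 and 112474, with 0.01 (SE 0.11), in 11.6% of the counts of the 13.

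Per length the mitochondrial genes were far above the nuclear ones, from 20848 normalized counts per kilobase for mt-Nd3 to 207591 for mt-Co1. The lowest of the 13 thus stood above Atp5b, the highest nuclear member. These genes have many DNA copies per cell, so the level does not compare transcription per gene copy.

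Among genes that build and feed the chain none passed the test either. Of 139 such genes tested, on 5 lists, 3 had groups that did not overlap with the irradiated group higher and 3 with it lower, beside 2.08% and 2.65% of all genes. Of 49 assembly factors tested, 0 were called, with a median log2 fold change of -0.07 and 39 negative. Without non-irradiated replicate 2 the median was 0.01 and 22 were negative. The smallest p belonged to Higd2a and Cox19, both of complex IV assembly. Higd2a had 1800.3, 1853 and 1501 normalized counts in non-irradiated and 1519, 1622 and 1395 in irradiated cells, with -0.18 (SE 0.13), and Cox19 869.7, 1041 and 868 and then 769, 767 and 925, with -0.18 (SE 0.15). The 21 genes of electron carriers and coenzyme Q synthesis had a median of -0.04, which turned to 0.07 without that library. Among them was Gpd2, a glycerol phosphate dehydrogenase that feeds electrons to ubiquinone, at 4347, 4359 and 3688 and then 4495, 6010.1 and 4185 and 0.23 (SE 0.16). In the same list Coq3, a methyltransferase of coenzyme Q synthesis, had 798, 824 and 706 and then 643, 683 and 768. The groups overlapped for all 4 genes. They did not for Tmem126b, an assembly factor of complex I that was lower with irradiation at 706, 854 and 678 and then 662, 643 and 675, nor for Etfa, an electron transfer flavoprotein subunit that was higher at 3021, 3221 and 3196 and then 3293, 3282 and 3227.

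Among 35 genes of mitochondrial biogenesis and mitochondrial DNA expression 0 were called, and the median log2 fold change was -0.04, or 0.00 without non-irradiated replicate 2. Slirp, which stabilises mitochondrial mRNAs, had 1411, 2004 and 1553 normalized counts in non-irradiated and 1324, 837 and 1177 in irradiated cells, with -0.58 (SE 0.21). Tefm, the mitochondrial transcription elongation factor, had 435, 477 and 364 and then 318, 355 and 272, with -0.43 (SE 0.19). The groups did not overlap for either gene, irradiated being lower, yet the limma adjusted p was 0.9998 for both. In the same list Fastkd5, which takes part in processing mitochondrial RNA, went the other way, at 584, 570.2 and 583 and then 638, 668 and 714, with 0.22 (SE 0.13) and groups that did not overlap. The summed level of the mitochondrially encoded members was 928826 ± 65992 (SD, n = 3) normalized counts in non-irradiated and 942276 ± 49108 (SD, n = 3) in irradiated cells.

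The 12 carriers of adenine nucleotides, phosphate and protons had a median of 0.01 (0.07 without non-irradiated replicate 2), with 0 called, and the calcium-regulated carrier Slc25a25 had 1032, 1234 and 1263 and then 1326, 1443 and 1402, with 0.25 (SE 0.13). Its groups did not overlap, while those of its relative Slc25a24 did, at 5717, 5977 and 5206 and then 5531, 6591 and 6280.0. The 22 tricarboxylic acid cycle genes had a median of 0.00 (0.06 without that library) and 0 called. There the smallest p belonged to Pcx, pyruvate carboxylase, at 1173, 1394 and 1418 and then 1180.1, 1788 and 1596, and Idh3g, a subunit of isocitrate dehydrogenase, at 2649.6, 2778 and 2330.4 and then 2319, 2439 and 2464. Both overlapped between groups.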

How the data were processed

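RNA-seq of 3 irradiated and 3 non-irradiated libraries was analysed from 1 deposited table. Trimmomatic 0.39, FastQC 0.11.9, HISAT2 2.2.1, StringTie 2.1.7 and build GRCm39 are named, per the submitters' processing notes, and no source used here gives their order, settings or strand handling. The authors deposited normalized counts per gene (a signal: gene counts divided by 1 size factor per library), per the file headers. DESeq2 results deposited beside them are the p-value, raw and adjusted, the Wald statistic (a score), and the log2 fold change and its error, per the file headers. Of 20745 rows, 80 repeated an identifier and were dropped, 3 of them of members, and 10 rows with member-like symbols that are not protein-coding were left out. Divided by its library's smallest step, 100% of values were whole within 0.001, and these recovered reads were used in edgeR, DESeq2 and voom as alternatives.

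Groups came from sample titles. In R 4.3.3, limma 3.58.1 (trend, 2-sided, Benjamini-Hochberg, no block) was fitted to log2(normalized count + 1) of the 16141 genes that reached 10 normalized counts in 3 or more libraries. On this scale the change of low genes is understated. Alternatives used edgeR 4.0.16 and DESeq2 1.42.0, other scalings, filters and pseudocounts, and left-out libraries. The test was checked on simulated data. These held no single library that stood apart and no shift by gene length, so the check does not cover those features. The replicate numbers come from the titles, and same-numbered libraries deviated together from their group means (correlations over 13054 genes of 0.642, 0.474 and 0.567, at most 0.013 between different numbers), so they were taken to pair the libraries. Deviations from a group mean cancel within the group, so positive values for the same number by themselves lower those between different numbers. No source used here says what a number stands for. Exon lengths came from GENCODE M21 and promoter windows from RefSeq, both of GRCm38, and were joined by identifier or symbol, so no coordinates of the files' own build are printed.

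The members and gene lists were chosen with earlier results of these data known. Named with values were every mitochondrially encoded and complex II member, isoform pairs, the 2 members of smallest p and the highest and lowest per length in each complex and genome, and the 2 genes of smallest p in each pathway list. Ndufs1, Uqcrc2, Ndufa5, Ndufb3, Ndufa12, Atp5a1, Tek, Emcn, Tmem126b, Etfa, Fastkd5 and marker genes were added after their values were seen.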

Additional observations from a re-analysis of the deposited data

How the results depend on the processing

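Members called stayed at 0 under every alternative run, among them other pseudocounts, filters and scalings, edgeR, DESeq2 and voom on recovered reads, the replicate block and each left-out library. The smallest adjusted p of a member was 0.1156, with the replicate block and both libraries of number 1 left out, where 32 of 94 members and 11.37% of all genes had an unadjusted p under 0.05. With the replicate block, which the pairing check favours, the count over all genes was 3 instead of 0, and it was 3 also with TMM scaling, equal library totals, quantile normalization or voom, 2 with edgeR and 23 with DESeq2. With the block and both libraries of number 1, 2 or 3 left out it was 35, 46 and 56. Without the block it was 1 for limma without a trend and 5 for DESeq2. In the authors' deposited table, whose design no source used here gives, it was 24. Block fits with a tool or scaling, and those with a number left out, were chosen after seeing the data.

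Leaving out 1 library at a time, all genes called ranged from 0 to 1 and members called stayed at 0. The nuclear median log2 fold change ranged from -0.18 to 0.04, positive without non-irradiated replicate 2, as it was for nuclear complexes I, III, IV and V, and the mitochondrial median from -0.040 to 0.036. Differences in mean log2 summed level ranged from -0.037 to 0.062 for all mitochondrial subunits, -0.020 to 0.078 for complex I, -0.04 to 0.05 for complex III, -0.051 to 0.060 for complex IV and -0.06 to 0.06 for complex V of that genome, and from -0.14 to 0.07 for all nuclear subunits. The mitochondrial median was -0.029 with the replicate block and number 2 left out, and the complex IV mitochondrial difference -0.061 as a mean of log2 values instead of a sum. Members differing between replicate numbers were 2 with a pseudocount of 5 or quantile normalization, 0 for limma without a trend and 3 without the group term, against 1. The causes were not tested. Of the single genes' values, 1527 kept their side of the threshold and direction within the spread, 34 moved, and Slirp alone passed, with the block and number 1 left out. Scalings moved the median of all genes by less than 0.1 on the log2 scale. Counting error is large only for the minor isoforms, and intervals on shares would cover counting error only.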
